A study of Mus musculus with 12 samples.

Results

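Cholesterol and fatty acids are both built from cytosolic acetyl-CoA, and 30 genes of these routes are described here. They comprise 18 genes of sterol synthesis, 8 genes of fatty acid synthesis, elongation and desaturation, the 3 regulators Srebf1, Srebf2 and Insig1, and the sterol carrier Stard4. Members were chosen by gene symbol, each of which matched 1 gene, and they are 30 of the 52636 genes in the tables. All 30 had a mean of at least 1 TPM (transcripts per 1000000, a level per transcript length) in both cell types.

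Bulk RNA-seq covered 12 libraries in 4 groups of 3, obtained from cultured murine cells. The PDGFR-β+ cells were labelled as lung cells of C57BL/6 mice aged 12 weeks. Per the study's methods, the lungs came from tamoxifen-induced reporter mice of genotype Pdgfrb-CreERT2, ROSA26R(Zs/+), and Zs+ cells were sorted. The inducible Cre is driven by Pdgfrb, a gene of pericytes, smooth muscle cells and fibroblasts alike. The SMCs were bought as primary cells of 1 commercial source and strain C57BL/6, named tracheal in one label and lung airway in another, with no age given. Cells of both types were serum starved for 2 h, exposed to 50 nM siKlf4 (a small interfering RNA against Klf4) or scrambled (Scr) RNA for 6 h, and cultured for 72 h. Control and knockdown cells of each type thus shared the source, culture medium, starvation and transfection, and were used at passages 2 to 4. The study describes the libraries of a group as independent experiments.

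Sterol synthesis runs from acetyl-CoA through mevalonate, farnesyl diphosphate, squalene and lanosterol to cholesterol. The transcription factors SREBP-1 and SREBP-2, encoded by Srebf1 and Srebf2, are held in the endoplasmic reticulum when sterols are plentiful, with the help of INSIG proteins, and are cut and released to the nucleus when sterols run low. Released SREBP-2 mainly raises genes of sterol synthesis, SREBP-1 mainly raises genes of fatty acid synthesis, and Insig1 is itself a target.

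Klf4 checked the labels. In PDGFR-β+ cells it measured 141 ± 6.16 TPM (SD, n = 3) with Scr and 13.0 ± 0.782 TPM with siKlf4, and in SMCs 93.6 ± 3.57 TPM and 20.5 ± 5.31 TPM, so that 9.16% and 21.9% of the Scr mean was left. Depth is not recorded in TPM, and between 20590 and 21780 genes per library were above 0. One Scr and one siKlf4 library of the SMCs carry no replicate number. In the unnumbered Scr library, 25 of the 30 genes were below both numbered Scr libraries and 2 were above both, so SMC results are given with and without this pair. The share of all genes in that order was not counted. Of the smooth muscle markers, Acta2 averaged 1373 TPM in Scr-treated SMCs and 4369 TPM in Scr-treated PDGFR-β+ cells, while Des averaged 2.77 and 2.08 TPM. Pdgfrb averaged 214 TPM in the SMCs and 447 TPM in the PDGFR-β+ cells. Of the 5 smooth muscle markers, 4 were higher in Scr-treated PDGFR-β+ cells and 0 lower (limma, adjusted p under 0.05). Of the 5 mesenchymal markers, 3 were higher there and 2, Pdgfra and Col3a1, lower. Of all 13032 genes tested, 25.9% were higher and 25.5% lower. Neither set was thus higher throughout in its labelled cell type.

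Among markers of other cell types, Adgre1, Tie1 and Sftpc averaged 0.035 TPM or less in every group. The 5 epithelial markers summed to at most 0.938 TPM in any library. The 5 macrophage markers summed to between 15.1 and 18.3 TPM with Scr and between 19.5 and 21.2 TPM with siKlf4 in PDGFR-β+ cells, and in SMCs to between 43.3 and 47.7 TPM and between 24.2 and 28.9 TPM. Most of the sum in SMCs was Cd14, which averaged 41.0 TPM with Scr and 22.1 TPM with siKlf4. In PDGFR-β+ cells Cd68 averaged 7.56 and 8.77 TPM and Cd14 6.88 and 10.5 TPM. Ptprc averaged 0.244 TPM or less in every group. The sum of the 5 cycling markers overlapped between Scr (188 to 263 TPM) and siKlf4 (196 to 228 TPM) in PDGFR-β+ cells, and was higher with siKlf4 in SMCs (147 to 173 TPM against 91.5 to 106 TPM). The sum in PDGFR-β+ cells hid opposite changes. There Mki67 averaged 45.8 TPM with Scr and 29.2 TPM with siKlf4, and Mcm2 36.8 and 56.2 TPM. Each kept its groups apart and passed the test, while the groups of the other 3 overlapped. The 4 endothelial markers summed to between 13.8 and 17.2 TPM with Scr and between 12.0 and 13.0 TPM with siKlf4 in PDGFR-β+ cells, and to at most 3.59 TPM in SMCs. Most of this sum in PDGFR-β+ cells was Kdr, at 15.3 TPM with Scr and 12.5 TPM with siKlf4 on average. Pecam1 and Cdh5 averaged 0.299 TPM or less in every group. The 5 smooth muscle markers summed to between 5440 and 6279 TPM with Scr and between 4543 and 4843 TPM with siKlf4 in PDGFR-β+ cells, whereas in SMCs their sum was higher with siKlf4 (3239 to 3986 TPM against 1385 to 2173 TPM). Acta2 made up most of each sum. Against these sums, Myh11 averaged 20.8 TPM with Scr and 33.4 TPM with siKlf4 in PDGFR-β+ cells, without overlap. In SMCs Des averaged 2.77 and 1.92 TPM, also without overlap, but did not pass the test. The sum of the 5 mesenchymal markers, Pdgfrb among them, overlapped in PDGFR-β+ cells (2805 to 3466 TPM and 2028 to 2837 TPM) and was lower with siKlf4 in SMCs (1970.3 to 2341 TPM against 3039 to 3131 TPM). In each cell type 3 of the 5 were lower without overlap and the other 2 overlapped. The part of these cells, or of cycling, in the results below was not tested. In a bulk library, fewer cells of a type and less RNA per cell cannot be told apart.

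In PDGFR-β+ cells, siKlf4 lowered transcripts along most of the sterol pathway and those of 4 genes of fatty acid elongation and desaturation. Of the 30 genes, 17 fell (56.7%), while 15.3% of the 13694 genes tested fell and 40.6% changed in either direction. The 17 were 12 of 18 sterol synthesis genes, 4 of 8 fatty acid genes and Insig1. No member rose (limma, adjusted p under 0.05), against 25.3% of all genes tested, and 1 member, Stard4, was higher at an unadjusted p under 0.05, which 50.2% of all genes met in either direction. The median log2 fold change was -0.47 over the 30 genes, -0.57 over sterol synthesis and -0.30 over the fatty acid genes, against 0.10 over all genes tested. All libraries of the 2 groups stayed apart for 23 members, 20 of them lower and 3 higher with siKlf4, where 19.8% and 33.9% of all genes tested did so (53.8% in either direction). Of all calls, 62.3% were higher, and with median-ratio scaling 48.2%. That scaling gave 20 lower members, where 21.3% of all genes tested were lower, and moved the median of all genes to 0.0052.

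**Figure D1:**
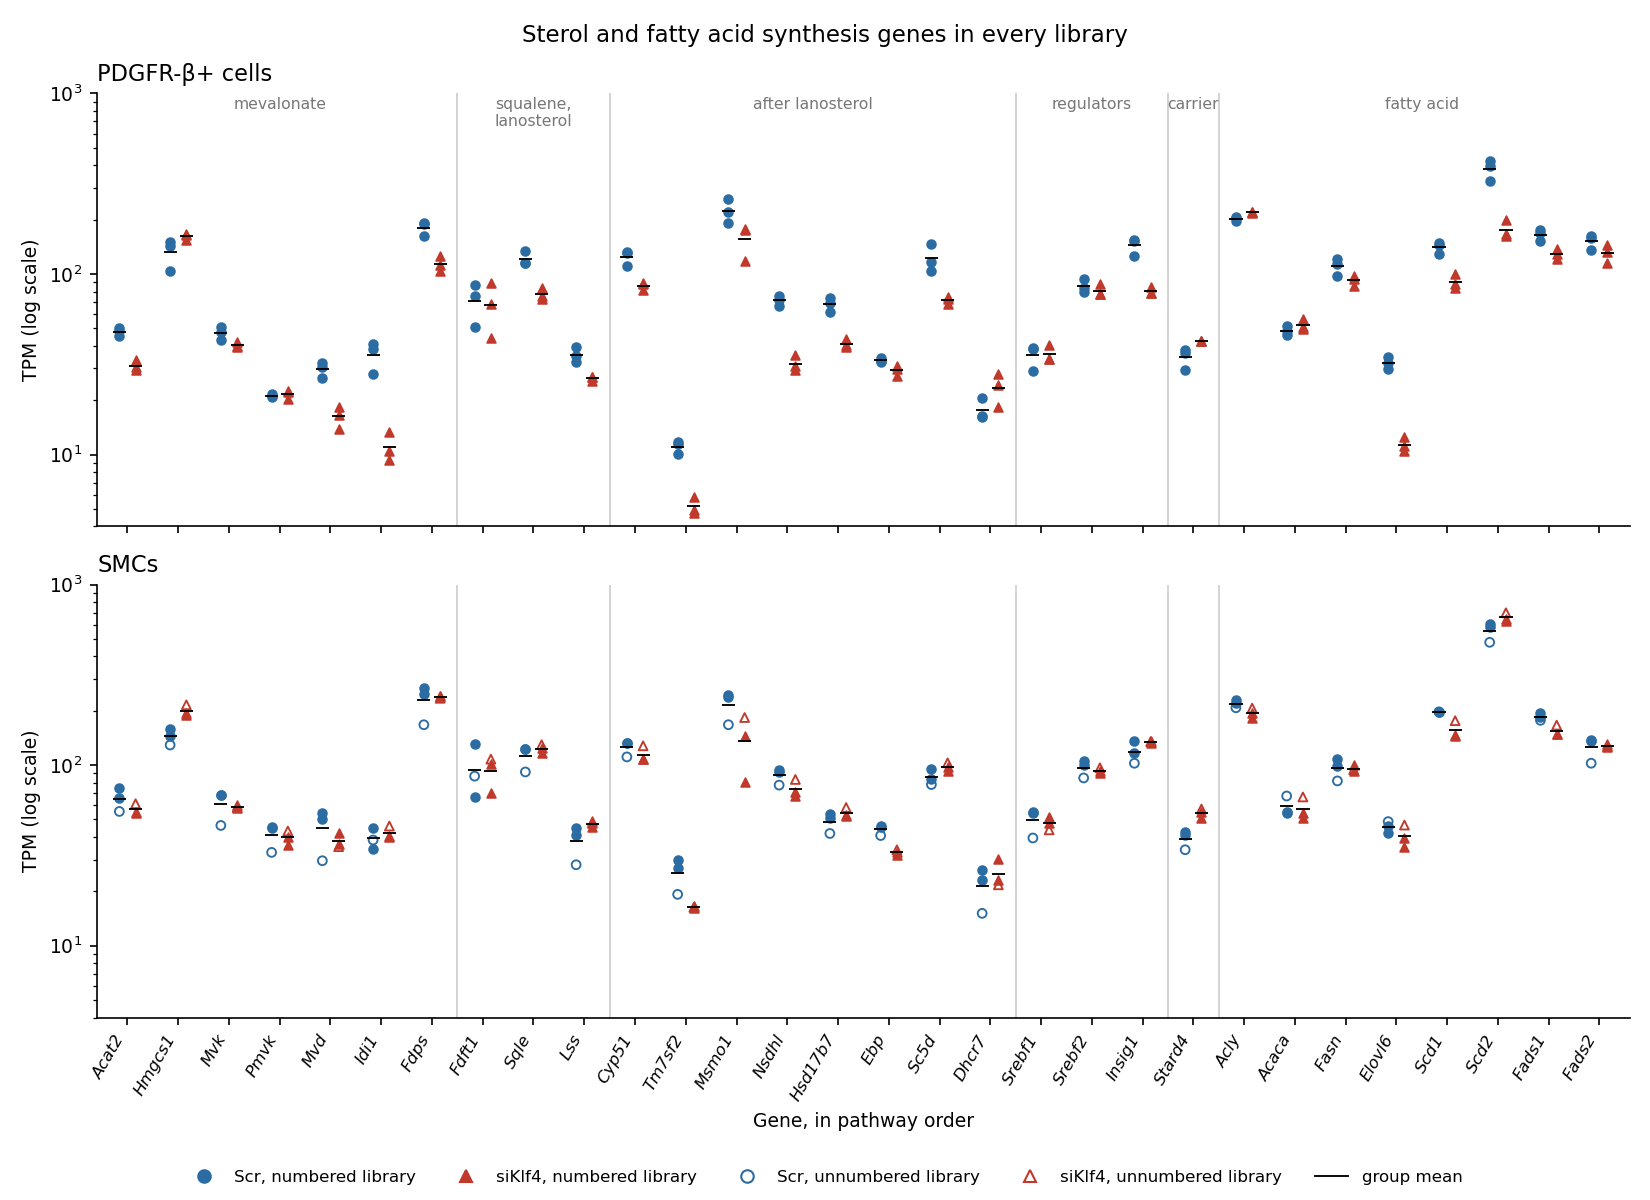
TPM on a log axis for each of the 30 genes in pathway order, with PDGFR-β+ cells above and SMCs below. Circles are Scr and triangles siKlf4 libraries, open symbols are the SMC libraries without a number, and short lines are group means. In PDGFR-β+ cells the siKlf4 libraries of 20 genes lie below all Scr libraries.

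Upstream sequences are shown for Idi1 and Nsdhl, the sterol genes that fell most, for Hsd17b7, Sc5d and Insig1, whose windows hold 3 of the 4 motifs searched, and for Hmgcs1, which did not fall. The RefSeq table of promoter windows (GRCm38.p6) holds 23 of the 30 members, each window from 250 bases before to 50 bases after the start. The windows were searched on both strands for the SRE-like letters TCACNCCAC, for CCAAT, for the E-box CACGTG and for CCNCACCC, a pattern of the kind bound by KLF proteins. The last 150 bases before the RefSeq start are printed on the strand of the gene, with matches in either orientation in capitals. The GENCODE gene starts further upstream for Idi1, Insig1 and Hsd17b7, so that 105, 49 and 36 of their printed bases lie inside the gene by that annotation. None of these matches overlapped another in the stretches printed.
Idi1 (chr13:8885456-8885605, + strand): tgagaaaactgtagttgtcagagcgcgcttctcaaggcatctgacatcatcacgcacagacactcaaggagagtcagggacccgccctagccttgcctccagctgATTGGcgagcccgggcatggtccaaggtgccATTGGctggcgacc
Nsdhl (chrX:72918371-72918520, + strand): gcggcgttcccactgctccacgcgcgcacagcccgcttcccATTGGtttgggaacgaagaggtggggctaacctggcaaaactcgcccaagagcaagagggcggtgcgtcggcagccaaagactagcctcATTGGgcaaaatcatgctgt
Hsd17b7 (chr1:169969206-169969355, - strand): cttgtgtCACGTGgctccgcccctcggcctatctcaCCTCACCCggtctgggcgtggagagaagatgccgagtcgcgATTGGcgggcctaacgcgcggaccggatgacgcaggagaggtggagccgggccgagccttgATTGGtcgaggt
Sc5d (chr9:42264301-42264450, - strand): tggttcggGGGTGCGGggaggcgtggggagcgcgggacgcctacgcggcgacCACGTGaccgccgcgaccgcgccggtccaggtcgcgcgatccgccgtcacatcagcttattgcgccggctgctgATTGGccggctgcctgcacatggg
Insig1 (chr5:28071262-28071411, + strand): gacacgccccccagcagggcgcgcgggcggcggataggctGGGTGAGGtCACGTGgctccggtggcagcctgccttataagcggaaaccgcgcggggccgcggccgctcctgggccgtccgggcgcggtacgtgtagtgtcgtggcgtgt
Hmgcs1 (chr13:119690201-119690350, + strand): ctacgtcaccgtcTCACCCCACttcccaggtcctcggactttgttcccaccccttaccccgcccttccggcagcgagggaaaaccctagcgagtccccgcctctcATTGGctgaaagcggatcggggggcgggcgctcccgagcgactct

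Some genes have several windows, and a gene was counted where any of its windows held the letters. CCAAT was found in 19 of the 23 members and in 41.1% of the 27025 genes with a window, among them 10 of the 12 members with a window that fell in PDGFR-β+ cells. Counted by window, it was in 20 of 28 member windows and in 37.4% of all 32851. The SRE-like letters were in 1 member, Hmgcs1, 137 to 129 bases before the start, and in 1.44% of all genes. The E-box was in 4 members (8.09% of all genes) and CCNCACCC in 6 (18.4% of all genes). Hsd17b7, Sc5d and Insig1, which fell, held both of these in 1 window, and Dhcr7, which did not pass the test, held them in different windows. A match describes letters in a window and not binding.

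Idi1 showed the largest fall of the 30. It encodes the isomerase that makes dimethylallyl diphosphate from isopentenyl diphosphate, and lies on chromosome 13 from 8885501 to 8892451 (GRCm38, as are the gene positions given below). It measured 38.4, 28.0 and 41.0 TPM in Scr replicates 1 to 3 and 13.3, 9.30 and 10.5 TPM in siKlf4 replicates 1 to 3. Every siKlf4 library was below every Scr library and 30.9% of the Scr mean was left (log2 fold change -1.61, standard error 0.17, adjusted p = 4.29e-04, limma). An exact permutation test (two-sided) of 3 against 3 libraries cannot give a p below 0.1, so complete separation alone does not pass 0.05. Of the 50-base words in Idi1 transcripts, 21.3% also occur in other genes, among them Gm13502, so reads may have been split between them.

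Other mevalonate steps also fell. Fdps, the synthase of farnesyl diphosphate, measured 188, 162 and 192 TPM in Scr libraries and 127, 104 and 112 TPM in siKlf4 libraries (log2 fold change -0.66, standard error 0.10, adjusted p = 0.00190, limma). Mvd, the mevalonate diphosphate decarboxylase, went from 32.0, 26.5 and 30.6 TPM to 18.4, 13.9 and 16.6 TPM (-0.83, standard error 0.12, adjusted p = 0.00172, limma). Acat2, the cytosolic thiolase of the first step, went from 50.2, 45.5 and 48.2 TPM to 33.6, 30.5 and 29.3 TPM (-0.61, standard error 0.082, adjusted p = 0.00112, limma). In all 3 genes the highest siKlf4 library was below the lowest Scr library. Acat2 shares 45.9% of its 50-base words with Acat3, and Fdps 11.7% with other genes, so these values are less certain.

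The remaining mevalonate genes did not pass the test. Hmgcs1, the synthase that supplies the precursor of mevalonate, measured 142, 104 and 151 TPM in Scr libraries and 167, 155 and 164 TPM in siKlf4 libraries. Each siKlf4 library lay above each Scr library, the opposite order to Idi1, but the spread of the Scr libraries was wide (log2 fold change 0.31, standard error 0.13, adjusted p = 0.107, limma). Mvk, mevalonate kinase, averaged 47.4 ± 3.88 TPM with Scr and 40.5 ± 1.16 TPM with siKlf4 (adjusted p = 0.0684, limma). Pmvk, which adds the next phosphate, averaged 21.2 ± 0.394 and 21.7 ± 1.16 TPM (adjusted p = 0.788, limma).

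Among the squalene and lanosterol steps, Sqle and Lss fell. Sqle, squalene epoxidase, measured 115, 115 and 133 TPM in Scr libraries and 83.8, 76.0 and 73.1 TPM in siKlf4 libraries (log2 fold change -0.63, standard error 0.089, adjusted p = 0.00137, limma). Lss, lanosterol synthase, went from 39.5, 32.6 and 35.1 TPM to 27.0, 25.6 and 27.0 TPM (-0.41, standard error 0.090, adjusted p = 0.00913, limma). Neither gene overlapped between groups. Fdft1, squalene synthase, averaged 71.4 ± 18.6 and 67.4 ± 22.6 TPM, a spread that left its log2 fold change between -0.75 and 0.55 (95% interval, adjusted p = 0.797, limma). It shares 10.9% of its 50-base words with Gm6781.

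Downstream of lanosterol, Nsdhl fell most. This sterol dehydrogenase, on chromosome X from 72918557 to 72958514, measured 75.6, 66.9 and 71.9 TPM in Scr libraries and 35.7, 29.2 and 30.8 TPM in siKlf4 libraries. The groups were far apart and 44.6% of the Scr mean was left (log2 fold change -1.14, standard error 0.095, adjusted p = 1.25e-04, limma). Hsd17b7, which reduces the ketone that Nsdhl forms, went from 73.3, 61.6 and 69.2 TPM to 43.6, 40.5 and 39.6 TPM (-0.71, standard error 0.087, adjusted p = 7.74e-04, limma). Sc5d, a sterol desaturase near the end of the route, went from 117, 104 and 147 TPM to 75.0, 68.1 and 73.1 TPM (-0.74, standard error 0.12, adjusted p = 0.00287, limma). Both kept all siKlf4 libraries below all Scr libraries.

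Tm7sf2, a sterol reductase, had the lowest level of the 30 in these cells. It measured 11.5, 10.1 and 11.7 TPM in Scr libraries and 5.83, 4.77 and 4.92 TPM in siKlf4 libraries (log2 fold change -0.97, standard error 0.11, adjusted p = 6.17e-04, limma). Its annotation overlaps that of Vps51 on the same strand, so reads could be assigned to either. Cyp51, lanosterol demethylase, went from 130.1, 111 and 132 TPM to 88.9, 88.0 and 81.9 TPM (-0.52, standard error 0.087, adjusted p = 0.00292, limma). These falls also left no overlap between the groups.

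Msmo1, the methylsterol monooxygenase, was the weakest call. Its levels were 222, 191 and 259 TPM in Scr libraries and 177, 175 and 119 TPM in siKlf4 libraries, with siKlf4 replicate 3 set apart from the other two (log2 fold change -0.52, standard error 0.18, adjusted p = 0.0476, limma). The call was lost in 9 of 14 alternatives. Without Scr replicate 1 or 3 the log2 fold change was -0.52 or -0.41 (adjusted p = 0.102 and 0.136, limma), and without siKlf4 replicate 2 or 3 it was -0.61 or -0.33 (adjusted p = 0.0553 and 0.0976, limma). Ebp, a sterol isomerase, averaged 33.3 ± 0.771 and 29.3 ± 1.92 TPM without passing (adjusted p = 0.107, limma). Dhcr7, the last reductase before cholesterol, averaged 17.7 ± 2.59 and 23.5 ± 4.81 TPM (log2 fold change 0.38, adjusted p = 0.104, limma), and passed as higher when siKlf4 replicate 2 was left out.

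The regulators split. Insig1, the sterol-dependent retention factor of SREBPs, on chromosome 5 from 28071363 to 28078662, measured 155, 126 and 153 TPM in Scr libraries and 84.8, 78.9 and 78.9 TPM in siKlf4 libraries. The siKlf4 libraries were close together and all below the Scr libraries, with 55.9% of the mean left (log2 fold change -0.83, standard error 0.094, adjusted p = 5.18e-04, limma). Srebf2, on chromosome 15 from 82147181 to 82205379, measured 94.5, 83.8 and 79.2 TPM in Scr libraries and 87.6, 77.3 and 77.7 TPM in siKlf4 libraries. These groups overlapped, and the 95% interval of the log2 fold change ran from -0.30 to 0.13 (-0.083, standard error 0.091, adjusted p = 0.498, limma).

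Srebf1, on chromosome 11 from 60199089 to 60222581, measured 38.6, 38.8 and 29.0 TPM in Scr libraries and 40.5, 34.1 and 34.0 TPM in siKlf4 libraries. Scr replicate 3 was the lowest library and the groups overlapped (log2 fold change 0.038, standard error 0.13, adjusted p = 0.845, limma, 95% interval -0.27 to 0.35). The sign of this value turned in 4 of 14 alternatives. A change of Srebf1 or Srebf2 transcripts was thus not detectable with this spread, and TPM does not measure the cut, nuclear form of their proteins. Stard4, which carries sterol between membranes, measured 38.1, 29.2 and 36.6 TPM in Scr libraries and 42.5, 42.3 and 42.8 TPM in siKlf4 libraries. Its siKlf4 libraries were all higher, but the difference did not pass (log2 fold change 0.30, standard error 0.11, adjusted p = 0.0593, limma). Without Scr replicate 1 it passed, as the 1 member then higher.

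In the fatty acid branch the falls that passed the test lay at elongation and desaturation. The entry steps and these later steps were not tested against each other. Elovl6, which lengthens palmitate to stearate, on chromosome 3 from 129532355 to 129638495, measured 32.1, 29.7 and 34.6 TPM in Scr libraries and 11.1, 10.5 and 12.5 TPM in siKlf4 libraries. The spread within each group was small beside the gap, and 35.4% of the mean was left (log2 fold change -1.42, standard error 0.099, adjusted p = 5.99e-05, limma). Scd2, a stearoyl-CoA desaturase and the most abundant member in Scr-treated cells, on chromosome 19 from 44293674 to 44306864, went from 420.2, 326 and 396 TPM to 199, 162 and 166 TPM. Its groups were also far apart (-1.11, standard error 0.12, adjusted p = 4.25e-04, limma).

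Scd1, the neighbouring desaturase gene, measured 148, 129.8 and 144 TPM in Scr libraries and 99.6, 84.1 and 87.6 TPM in siKlf4 libraries (log2 fold change -0.63, standard error 0.089, adjusted p = 0.00139, limma). Scd1 and Scd2 share 4.66% and 4.01% of their 50-base words with other genes, Scd3 and each other among them. Fads1, a desaturase of polyunsaturated fatty acids, went from 175, 152 and 168 TPM to 138, 121 and 129.8 TPM (-0.34, standard error 0.082, adjusted p = 0.0133, limma). Neither gene overlapped between groups, and the call of Fads1 was lost without siKlf4 replicate 2 (-0.30, adjusted p = 0.0519, limma).

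The entry steps of fatty acid synthesis and the desaturase gene Fads2 did not pass the test. Acly, which makes cytosolic acetyl-CoA from citrate, measured 206, 197 and 204 TPM in Scr libraries and 222, 222 and 217 TPM in siKlf4 libraries (log2 fold change 0.12, standard error 0.058, adjusted p = 0.132, limma). Acaca, acetyl-CoA carboxylase, averaged 48.4 ± 2.75 and 52.3 ± 3.46 TPM (adjusted p = 0.323, limma), and 52.6% of its 50-base words also occur in Gm5182. Fasn, fatty acid synthase, averaged 111 ± 12.3 and 92.6 ± 5.85 TPM (adjusted p = 0.0737, limma). Fads2, the partner of Fads1, averaged 152 ± 14.3 and 131 ± 15.3 TPM (adjusted p = 0.147, limma). Acly libraries were all higher and Fasn libraries all lower with siKlf4, whereas those of Acaca and Fads2 overlapped.

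**Figure D2:**
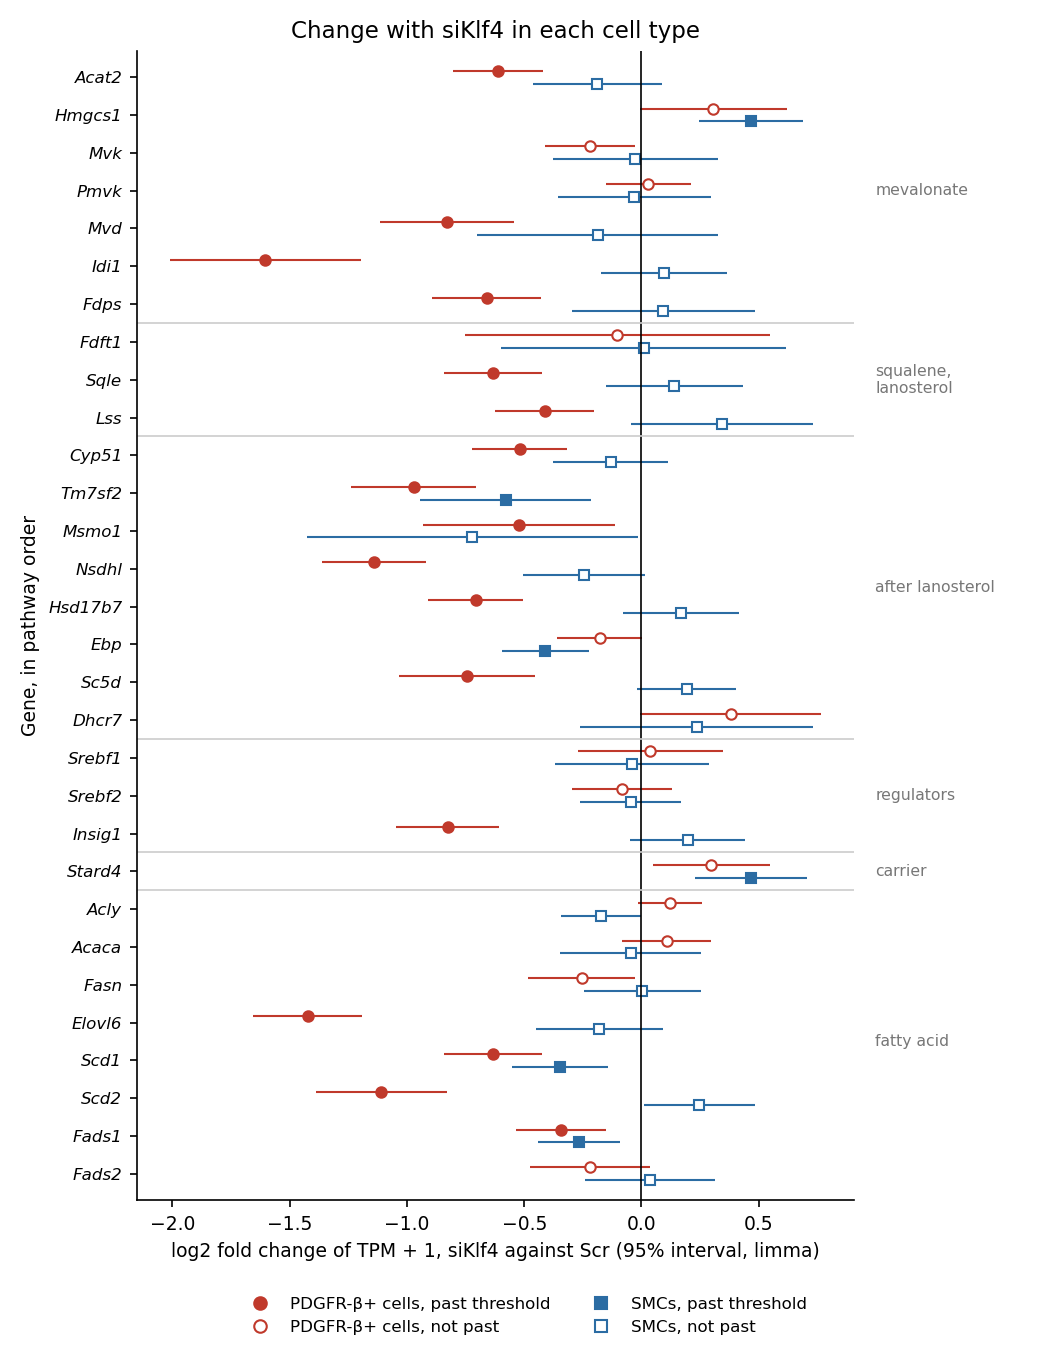
Log2 fold change of TPM + 1 for siKlf4 against Scr, with 95% intervals from limma, for the 30 genes in pathway order. Red circles are PDGFR-β+ cells and blue squares SMCs, and filled symbols passed the test at an adjusted p under 0.05. The red symbols of Idi1, Elovl6, Nsdhl and Scd2 lie at -1.61, -1.42, -1.14 and -1.11, while the blue symbols of these genes lie between -0.25 and 0.25.

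In SMCs siKlf4 moved few of these genes past the threshold. Hmgcs1 and Stard4 rose (6.67% of members, against 15.6% of the 13709 genes tested), and Tm7sf2, Ebp, Scd1 and Fads1 fell (13.3%, against 12.9%), shares near or below those of all genes, of which 28.5% changed in either direction. The median log2 fold change over the 30 genes was -0.028, against 0.017 over all genes tested. All libraries of the 2 groups stayed apart for 5 genes that were lower and 4 that were higher with siKlf4, where 21.5% and 25.6% of all genes tested did so (47.1% in either direction).

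Hmgcs1 measured 145, 159 and 129 TPM in Scr libraries and 194, 189 and 216 TPM in siKlf4 libraries, where the values are those of replicates 2 and 3 and then of the unnumbered library, here and below. All siKlf4 libraries were above all Scr libraries (log2 fold change 0.47, standard error 0.094, adjusted p = 0.0117, limma). Stard4 showed the same order, with 40.8, 42.7 and 34.0 TPM for Scr and 54.7, 51.0 and 57.1 TPM for siKlf4 (0.47, standard error 0.10, adjusted p = 0.0155, limma). Without siKlf4 replicate 2 its call was lost (0.46, adjusted p = 0.0551, limma).

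Ebp went from 46.3, 45.4 and 40.7 TPM to 31.9, 33.0 and 33.9 TPM (log2 fold change -0.41, standard error 0.078, adjusted p = 0.00978, limma) and passed whichever library was left out. Tm7sf2 measured 29.8, 26.9 and 19.2 TPM in Scr libraries and 16.7, 16.1 and 16.3 TPM in siKlf4 libraries (-0.58, standard error 0.15, adjusted p = 0.0311, limma). Scd1 measured 198, 197 and 197 TPM and then 146, 145 and 176 TPM (-0.35, standard error 0.087, adjusted p = 0.0252, limma), and Fads1 186, 194 and 177 TPM and then 148, 148 and 166 TPM (-0.27, standard error 0.074, adjusted p = 0.0347, limma). In these genes the siKlf4 libraries were lower throughout, but the tests depended on single libraries. Without any 1 of the 4 numbered libraries Tm7sf2, Scd1 and Fads1 did not pass, and Tm7sf2 also did not pass without the unnumbered siKlf4 library (log2 fold changes of Tm7sf2 between -0.59 and -0.45, of Scd1 between -0.35 and -0.30 and of Fads1 between -0.27 and -0.23).

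The genes that fell furthest in PDGFR-β+ cells overlapped between the SMC groups or leaned the other way. Idi1 averaged 39.4 ± 5.34 TPM with Scr and 42.0 ± 3.43 TPM with siKlf4 (adjusted p = 0.548, limma). Elovl6 averaged 45.7 ± 3.34 and 40.4 ± 5.70 TPM (adjusted p = 0.278, limma). Scd2 measured 581, 607 and 479 TPM in Scr libraries and 645, 628 and 698 TPM in siKlf4 libraries, with no overlap and an adjusted p of 0.108 (limma). The regulators did not pass the test with all libraries. Insig1 averaged 118 ± 16.8 and 135 ± 1.69 TPM (log2 fold change 0.20, standard error 0.10, adjusted p = 0.195, limma) and passed without Scr replicate 3 (0.30, adjusted p = 0.0495, limma). The other two were Srebf2 at 96.7 ± 10.5 and 93.2 ± 3.10 TPM (-0.047, standard error 0.091, adjusted p = 0.727, limma) and Srebf1 at 49.6 ± 8.81 and 47.8 ± 3.88 TPM (-0.042, standard error 0.14, adjusted p = 0.843, limma).

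The other sterol genes ranged widely within the Scr group. Fdps averaged 228 ± 53.4 TPM with Scr and 239 ± 3.56 TPM with siKlf4, Msmo1 216 ± 42.5 and 136 ± 52.3 TPM, Sqle 113 ± 18.3 and 123 ± 6.78 TPM, and Cyp51 125 ± 12.4 and 114 ± 11.7 TPM. Nsdhl averaged 87.8 ± 8.97 and 73.9 ± 8.40 TPM, Sc5d 85.5 ± 8.72 and 97.6 ± 5.12 TPM, Fdft1 94.5 ± 32.5 and 93.1 ± 19.9 TPM, and Hsd17b7 48.7 ± 6.11 and 54.6 ± 3.15 TPM. Their groups overlapped and no adjusted p was under 0.05. For the less abundant enzymes the means were 65.3 ± 9.81 and 56.9 ± 3.71 TPM (Acat2), 60.8 ± 12.6 and 58.8 ± 1.36 TPM (Mvk), 44.6 ± 13.2 and 37.9 ± 3.61 TPM (Mvd), 41.0 ± 7.06 and 39.8 ± 3.52 TPM (Pmvk), 37.9 ± 8.76 and 47.5 ± 1.91 TPM (Lss), and 21.4 ± 5.68 and 25.0 ± 4.47 TPM (Dhcr7). In the fatty acid branch Acly averaged 219 ± 10.5 and 194 ± 12.2 TPM, Fads2 125 ± 19.8 and 127 ± 2.65 TPM, Fasn 96.0 ± 13.2 and 95.7 ± 3.65 TPM, and Acaca 59.0 ± 7.30 and 57.3 ± 8.26 TPM. Of the genes in these last sentences the libraries of Lss and Acly stayed apart, and none passed the test.

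The naming of the SMC libraries coincided with the direction of many sterol genes. Between the unnumbered libraries, 16 of 18 sterol synthesis genes were higher with siKlf4. In the 4 numbered libraries 12 of 18 had a log2 fold change below 0, where the median over all genes tested was 0.026. The shares of all genes in these directions were not counted, so neither count sets the sterol genes apart. Fdps measured 167 TPM in the unnumbered Scr library and 249 and 268 TPM in the numbered ones, against 234 to 241 TPM with siKlf4. Mvk measured 46.3 TPM in the unnumbered Scr library and 68.3 and 67.9 TPM in the numbered ones, against 57.8 to 60.4 TPM with siKlf4. The siKlf4 libraries of both genes thus lay above 1 Scr library and below the other two.

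Within the numbered libraries alone, a choice made after the data were seen in earlier work, 10 members fell (33.3%, against 13.3% of the 13743 genes tested) and Hmgcs1 and Stard4 rose (6.67%, against 15.6%). Of all genes 28.9% changed in either direction. The 10 were Acat2, Mvd, Cyp51, Tm7sf2, Msmo1, Nsdhl, Ebp, Acly, Scd1 and Fads1, and 8 of them had also fallen in PDGFR-β+ cells. Nsdhl stood at 0.10 between the unnumbered libraries and at a log2 fold change of -0.42 between the numbered ones (standard error 0.055, adjusted p = 0.0102, limma). Cyp51 likewise stood at 0.20 and at -0.30 (standard error 0.044, adjusted p = 0.0129, limma). For Idi1, Scd2 and Insig1 the numbered libraries gave 0.021, 0.10 and 0.099, with adjusted p of 0.921, 0.161 and 0.433 (limma). Of these, none was below 0 in either set of SMC libraries. Elovl6 was below 0 in both, at -0.062 between the unnumbered libraries and -0.24 between the numbered ones (adjusted p = 0.107, limma). The 2 numbered libraries per group give few degrees of freedom, and the source of the naming was not tested.

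**Figure D3:**
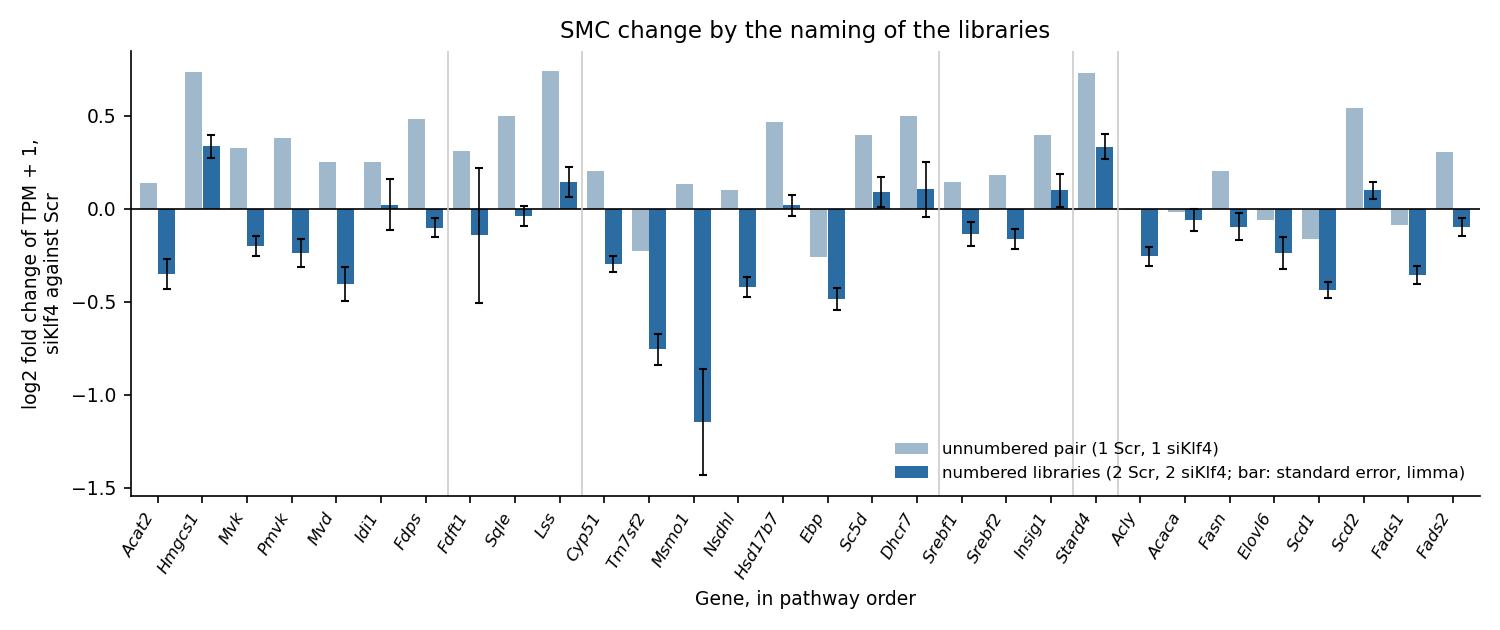
Log2 fold change of TPM + 1 in SMCs for siKlf4 against Scr, for the 30 genes in pathway order. Pale bars are the unnumbered pair of libraries, which has no replicate, and dark bars the 4 numbered libraries with the standard error from limma. Most pale bars of sterol genes point up (16 of 18), and most dark bars point down (12 of 18). The shares over all genes were not counted.

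The difference of the siKlf4 effect between the cell types was tested as an interaction over the 12 libraries. The effect was higher in SMCs for 11 members (36.7%, against 14.5% of the 13032 genes tested) and lower in SMCs for Acly (3.33%, against 18.5%), while 33.0% of all genes differed in either direction. The 11 were all among the 17 that fell in PDGFR-β+ cells: Acat2, Idi1, Fdps, Sqle, Lss, Nsdhl, Hsd17b7, Sc5d, Insig1, Elovl6 and Scd2. On the log2 scale the difference was 1.70 for Idi1 (standard error 0.22, adjusted p = 2.00e-04, limma), and Scd2 differed by 1.36 (0.17, 1.27e-04), Elovl6 by 1.24 (0.15, 1.31e-04) and Insig1 by 1.02 (0.15, 3.39e-04). These 4 genes were the furthest apart of the 30, and in SMCs none of the 4 passed the test with all libraries.

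Smaller differences passed at other sterol steps. Sc5d differed by 0.94 (standard error 0.16, adjusted p = 0.00118, limma), Nsdhl by 0.90 (0.15, 9.79e-04), Hsd17b7 by 0.87 (0.14, 6.89e-04), Sqle by 0.77 (0.16, 0.00362), Lss by 0.76 (0.20, 0.0129), Fdps by 0.75 (0.21, 0.0169) and Acat2 by 0.42 (0.15, 0.0449). The difference of Acat2 was the least stable. It did not pass without PDGFR-β+ Scr replicate 1 or 3, PDGFR-β+ siKlf4 replicate 2 or 3, SMC Scr replicate 2, SMC siKlf4 replicate 2 or 3, or either unnumbered library (0.31 to 0.45). Acly, whose log2 fold change was below 0 in SMCs and above 0 in PDGFR-β+ cells, differed by -0.29 (standard error 0.087, adjusted p = 0.0228, limma) and did not pass without SMC Scr replicate 2 (-0.26) or SMC siKlf4 replicate 3 (-0.25). With the numbered SMC libraries only, 10 members differed upwards, without Acat2 (13.7% of all genes tested did so).

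For the other 6 genes that fell in PDGFR-β+ cells, no difference between cell types was shown. These were Mvd (interaction 0.64, adjusted p = 0.0902), Cyp51 (0.39, 0.0533), Tm7sf2 (0.39, 0.150), Msmo1 (-0.20, 0.727), Scd1 (0.29, 0.106) and Fads1 (0.078, 0.623) by limma. Tm7sf2, Scd1 and Fads1 had fallen in both cell types. The interaction of Srebf1 was -0.079 (standard error 0.21, adjusted p = 0.80, limma) and that of Srebf2 0.037 (standard error 0.13, adjusted p = 0.856, limma). Klf4 itself differed by 1.19 (standard error 0.19, adjusted p = 6.90e-04, limma), so the knockdown was deeper in the cells where these genes fell, and its part in the difference was not tested.

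The sterol and fatty acid branches were compared as means over genes of log2(TPM + 1), relative to the Scr mean of the cell type and without a test, since the list was chosen with results known. In PDGFR-β+ cells the 18 sterol genes stood at 0.019, -0.096 and 0.077 in Scr replicates 1 to 3 and at -0.39, -0.60 and -0.53 in siKlf4 replicates 1 to 3. The 8 fatty acid genes stood at 0.070, -0.078 and 0.0082 with Scr and at -0.38, -0.56 and -0.47 with siKlf4. Both branches were therefore lower by a similar amount on this scale. Within the branches the steps were uneven, since in the fatty acid branch Elovl6 (log2 fold change -1.42) and Scd2 (-1.11) lay far below the other genes, while 12 sterol genes fell.

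In SMCs the sterol mean was 0.078 and 0.18 in the numbered Scr libraries, -0.26 in the unnumbered one, -0.070 and -0.099 in the numbered siKlf4 libraries and 0.041 in the unnumbered one. The fatty acid mean was 0.013, 0.057 and -0.070 with Scr and -0.12, -0.17 and 0.020 with siKlf4, again with the unnumbered library last. In each branch the siKlf4 libraries were below the Scr libraries among the numbered ones, and above among the unnumbered.

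**Figure D4:**
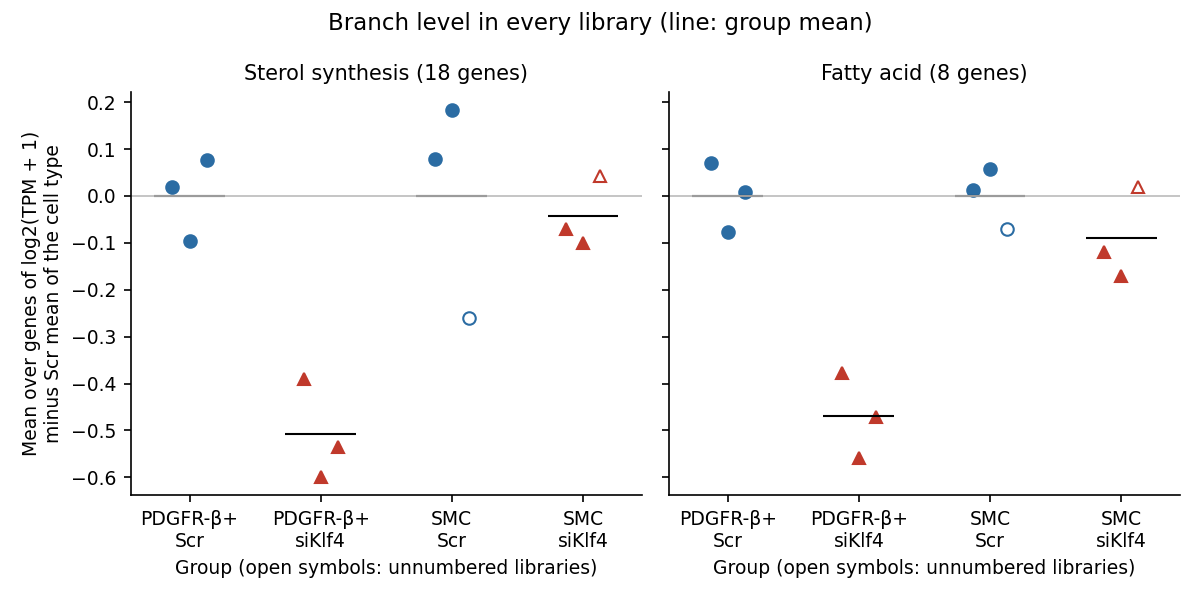
Mean over the genes of a branch of log2(TPM + 1) minus the Scr mean of the same cell type, for every library (left, 18 sterol synthesis genes; right, 8 fatty acid genes). Blue circles are Scr, red triangles siKlf4, open symbols unnumbered libraries and lines group means. The siKlf4 libraries of PDGFR-β+ cells lie between -0.60 and -0.38 in both panels, and those of SMCs between -0.17 and 0.041.

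Levels in Scr-treated cells were compared between the cell types, where cell type, source and table cannot be told apart. In Scr-treated PDGFR-β+ cells 11 of the 30 genes were lower (36.7%, against 25.5% of all 13032 genes tested) and 3 were higher (10.0%, against 25.9%), while 51.4% of all genes differed in either direction. The Scr libraries of the cell types stayed apart for 12 members that were lower and 2 that were higher in PDGFR-β+ cells, where 29.2% and 28.3% of all genes tested did so (57.5% in either direction). The higher ones were Hsd17b7 (log2 difference 0.48, standard error 0.099, adjusted p = 0.00169), Sc5d (0.50, 0.11, 0.00314) and Insig1 (0.29, 0.10, 0.0317), by limma. All 3 of them fell with siKlf4 in PDGFR-β+ cells, to means of 41.2, 72.1 and 80.9 TPM against Scr means of 48.7, 85.5 and 118 TPM in SMCs. Most members with a lower Scr level fell there too, among them Tm7sf2, Nsdhl, Elovl6 and Scd2. The PDGFR-β+ Scr libraries entered both comparisons.

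The largest baseline differences were lower values of Tm7sf2 (log2 difference -1.10, standard error 0.14, adjusted p = 4.87e-05, limma) and Pmvk (-0.90, standard error 0.12, adjusted p = 5.26e-05, limma). Scd2 (-0.54), Elovl6 (-0.50), Scd1 (-0.49), Acat2 (-0.43) and Ebp (-0.40) were also lower, with adjusted p between 8.05e-04 and 0.00470 (limma). Mvd (-0.53, adjusted p = 0.0368), Srebf1 (-0.47, 0.0179), Mvk (-0.34, 0.0440) and Nsdhl (-0.29, 0.0395) were lower as well, but these 4 and Insig1 depended on single libraries. Without PDGFR-β+ Scr replicate 3 or SMC Scr replicate 2 none of the 5 passed, and without SMC Scr replicate 3 Mvd, Srebf1, Mvk and Nsdhl did not (Mvd -0.55 to -0.37, Srebf1 -0.40 to -0.34, Mvk -0.34 to -0.24, Nsdhl -0.29 to -0.24, Insig1 0.25 and 0.29). Mvd (-0.58) and Insig1 (0.24) also missed the threshold without PDGFR-β+ Scr replicate 1, Mvd (-0.45), Mvk (-0.27) and Nsdhl (-0.24) without replicate 2, and Insig1 (0.20) without the unnumbered SMC library. Srebf2 did not pass with all libraries (-0.17, standard error 0.093, adjusted p = 0.154, limma) but was lower without the unnumbered SMC Scr library (-0.26, adjusted p = 0.0314, limma). The count of lower members was 7 without PDGFR-β+ Scr replicate 3 or without SMC Scr replicate 2 or 3, namely Acat2, Pmvk, Tm7sf2, Ebp, Elovl6, Scd1 and Scd2 each time, where 22.7% to 23.6% of all genes tested were lower. The count of higher members was 5 without SMC Scr replicate 3, with Fasn and Fads2 added (23.3% of all genes tested). With the numbered SMC libraries only, 15 members were lower and 2 higher, against 23.8% and 25.3% of all genes tested.

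**Figure D5:**
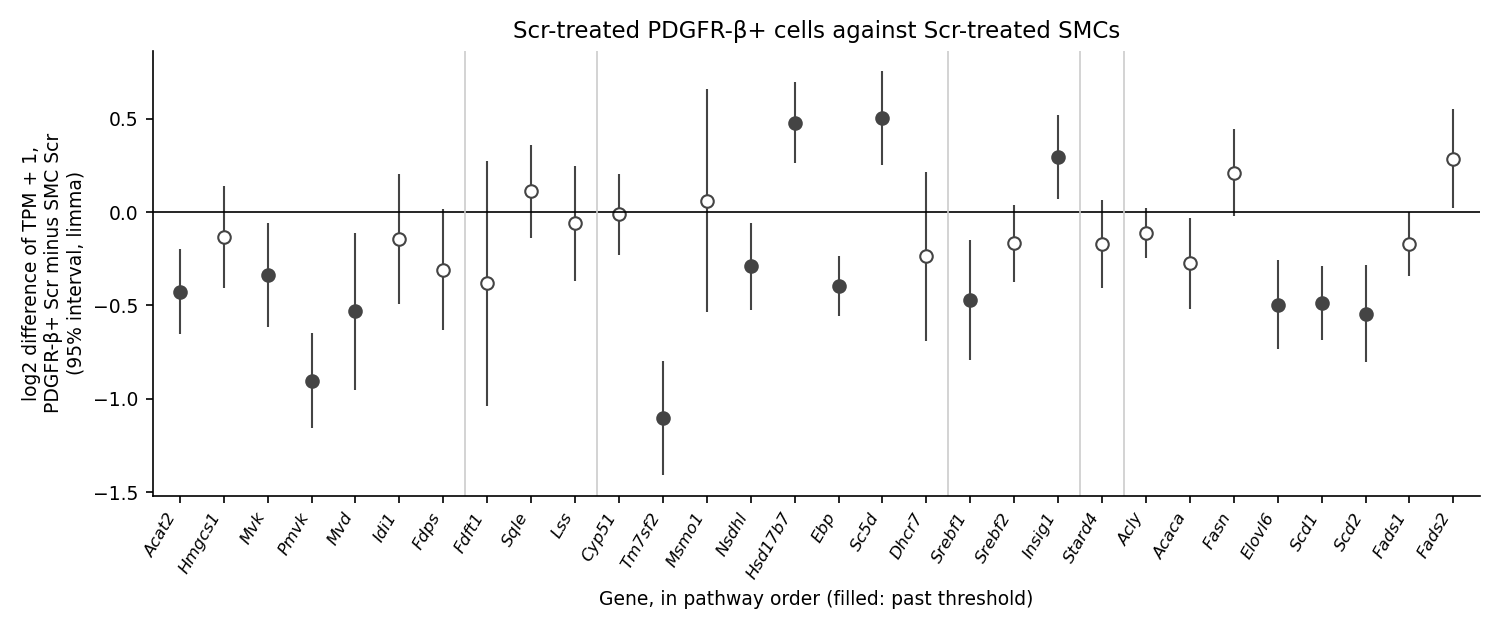
Log2 difference of TPM + 1 between Scr-treated PDGFR-β+ cells and Scr-treated SMCs for the 30 genes in pathway order, with 95% intervals from limma. Filled symbols passed the test at an adjusted p under 0.05. Tm7sf2 and Pmvk lie lowest at -1.10 and -0.90, and Sc5d and Hsd17b7 highest at 0.50 and 0.48.

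The order of levels in Scr-treated cells was led by Scd2, with 556 ± 67.9 TPM in SMCs and 381 ± 49.0 TPM in PDGFR-β+ cells, and ended with Dhcr7 in SMCs and Tm7sf2 in PDGFR-β+ cells. Behind Scd2 in PDGFR-β+ cells came Msmo1 at 224 ± 33.8 TPM and Acly at 202 ± 4.98 TPM, which did not differ beyond their spread. In SMCs Fdps at 228 ± 53.4 TPM, Acly at 219 ± 10.5 TPM and Msmo1 at 216 ± 42.5 TPM were likewise not apart. With siKlf4, Scd2 at 176 ± 20.6 TPM was behind Acly at 220.3 ± 2.53 TPM in PDGFR-β+ cells, while it stayed first in SMCs at 657 ± 36.3 TPM.

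Genes next to these routes were also followed in a list of 34, of which 31 were tested in each cell type. In PDGFR-β+ cells 10 of them fell and 6 rose (15.3% and 25.3% of all genes tested), and in SMCs 3 fell and 7 rose (12.9% and 15.6%). In PDGFR-β+ cells the genes of sterol handling moved mostly downwards, with 8 of 11 lower and 1 higher. The 4 largest changes were those of Nr1h3, Abca1, Soat1 and Lipa.

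Nr1h3, which encodes the sterol-sensing nuclear receptor LXR-α, measured 7.04, 5.71 and 6.26 TPM in Scr libraries and 2.06, 2.10 and 1.21 TPM in siKlf4 libraries (log2 fold change -1.41, standard error 0.17, adjusted p = 6.72e-04, limma). Abca1, a cholesterol exporter, went from 22.4, 13.5 and 22.6 TPM to 9.75, 6.54 and 6.55 TPM (-1.24, standard error 0.23, adjusted p = 0.00421, limma). Both groups of both genes stayed apart, with the lowest Scr library of Abca1 nearest to the siKlf4 libraries. Soat1, which esterifies cholesterol for storage, averaged 49.9 ± 4.15 and 27.4 ± 1.58 TPM (-0.84, standard error 0.089, adjusted p = 3.96e-04, limma). Lipa, the lysosomal acid lipase that releases cholesterol, averaged 101 ± 9.48 and 57.4 ± 4.45 TPM (-0.80, standard error 0.095, adjusted p = 6.64e-04, limma).

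In SMCs the 4 largest changes were those of Hacd1, Acss2, Tmem97 and Pdss1. Hacd1, of very long chain fatty acid elongation, rose from 51.0, 47.6 and 35.4 TPM to 90.1, 97.1 and 97.8 TPM (log2 fold change 1.09, standard error 0.13, adjusted p = 0.00261, limma), and it also rose in PDGFR-β+ cells (0.49, standard error 0.064, adjusted p = 9.65e-04, limma). Acss2, which makes acetyl-CoA from acetate, fell in both, from 33.6 ± 0.465 to 20.9 ± 0.760 TPM in SMCs and from 10.3 ± 0.684 to 7.05 ± 0.436 TPM in PDGFR-β+ cells (-0.66 and -0.49, adjusted p = 0.00166 and 0.00657, limma). Tmem97, a sterol-regulated membrane protein gene, was 38.9 ± 6.63 and 58.8 ± 5.60 TPM in SMCs (0.59, standard error 0.14, adjusted p = 0.0193, limma) but fell in PDGFR-β+ cells (-0.33, standard error 0.083, adjusted p = 0.0166, limma). Pdss1, of ubiquinone side chain synthesis, was 4.97 ± 0.589 and 7.59 ± 0.563 TPM in SMCs (0.53, standard error 0.12, adjusted p = 0.0182, limma).

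Of the genes that act on SREBP proteins, Scap, Insig2, Mbtps1 and Mbtps2, 1 fell in each cell type, Insig2 in PDGFR-β+ cells (log2 fold change -0.51, standard error 0.13, adjusted p = 0.0192, limma) and Mbtps1 in SMCs (-0.27, standard error 0.077, adjusted p = 0.0378, limma). Among markers of lipid storage, Plin2, which coats lipid droplets, rose in both cell types, from 119 to 306 TPM in SMCs and from 138 to 248 TPM in PDGFR-β+ cells on average (log2 fold changes 1.35 and 0.84, adjusted p = 9.28e-04 and 4.95e-04, limma). Fabp4, a fatty acid carrier of the same list, fell in SMCs from 312 to 137 TPM (-1.18, standard error 0.11, adjusted p = 0.00119, limma) and rose in PDGFR-β+ cells from 22.3 to 31.6 TPM (0.48, standard error 0.11, adjusted p = 0.0117, limma). Plin1 averaged 0.111 TPM or less in every group. The 6 markers of this list summed to between 157 and 175 TPM with Scr and between 275 and 320.2 TPM with siKlf4 in PDGFR-β+ cells, and overlapped in SMCs (410 to 491 TPM and 427 to 485 TPM).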

How the data were processed

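RNA-seq of 12 libraries was analysed from 2 tables of TPM values that the authors deposited, 1 per cell type, with 52636 genes. The submitters' processing notes and the study's methods name HISAT2, mm10, GENCODE annotation (release not given in the sources used here), and StringTie with ballgown, from stranded poly(A) libraries. The notes also name DESeq2, which the study ran on counts not used here. TPM values deposited by the authors are scaled to the same total in each library, so the depth is unknown and no counting interval can be given.

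TPM was transformed to log2(TPM + 1), genes averaging 1 TPM or more per cell type were kept, and limma 3.58.1 in R 4.3.3 was fitted on all of them with a mean-variance trend, followed by Benjamini-Hochberg adjustment at 0.05. Fold changes are on this scale, which understates changes of low genes. The siKlf4 effect was fitted within each cell type, and its difference and the Scr levels over all 12 libraries. The 2 tables were normalized separately, so levels set across them carry that limit. Columns of the SMC table without a replicate number were assigned to their group only. Replicate numbers were not taken to pair the libraries. The scripts were tested on simulated data. Alternatives covered pseudocount, filter, scaling, trend, block, joint fits and each library left out.

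All members and Klf4 were named, with full statistics for those past the threshold and for the 3 regulators, as were the 4 neighbouring pathway genes of largest change in each cell type. Insig2, Mbtps1, Plin2, Fabp4 and the markers given by name were chosen after their values were seen. The members and lists were chosen with earlier results of these data known. Gene positions come from GENCODE M21 (GRCm38), and words of 50 bases shared between the transcripts of different genes were counted there.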

Additional observations from a re-analysis of the deposited data

Results flagged for a closer look

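The siKlf4 effect differed between SMCs and PDGFR-β+ cells for 12 of the 30 genes (40.0%, against 33.0% of the 13032 genes tested) by a test of the difference itself (limma interaction over 12 libraries, adjusted p under 0.05). On the log2 scale, as the SMC effect minus the PDGFR-β+ effect, the differences were 1.70 for Idi1, 1.36 for Scd2, 1.24 for Elovl6, 1.02 for Insig1, 0.94 for Sc5d, 0.90 for Nsdhl, 0.87 for Hsd17b7, 0.77 for Sqle, 0.76 for Lss, 0.75 for Fdps, 0.42 for Acat2 and -0.29 for Acly. Klf4 itself differed by 1.19. The first 10 passed in each of 22 alternatives, Acly in 19 and Acat2 in 9. What the knockdown depth contributed was not tested.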

How the results depend on the processing

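Of single-gene results under alternative settings, 136 of 160 kept their outcome in SMCs, 266 of 280 in PDGFR-β+ cells, 307 of 330 for the difference between cell types and 178 of 208 for Scr levels. These cover the members that passed, Klf4, and the regulators whether or not they passed, so they do not count calls alone. In SMCs the calls of Tm7sf2 and Fads1 were each lost in 6 of 16 alternatives, that of Scd1 in 5 and that of Stard4 in 2. Those of Hmgcs1 and Ebp were kept in all 16. Precision is limited by 3 libraries a group and by TPM, which keeps no depth. Members lower in SMCs numbered 4 with all libraries (12.9% of all genes tested), 1 with no filter on low values (4.98%, with more genes tested) and 10 in the numbered libraries only (13.3%). When a library was left out, 1 to 5 members were lower (7.61% to 11.5% of all genes tested) and 1 to 3 higher (8.44% to 14.9%). In PDGFR-β+ cells the members higher numbered 1 with all libraries in 1 fit (26.8% of all genes tested) and 0 to 1 with a library left out (18.8% to 24.2%). Differences between cell types below 0 numbered 0 with median-ratio scaling (16.4% of all genes tested) and 2 with the numbered SMC libraries only (16.9%). They numbered 0 to 2 with a library left out (15.1% to 18%). Members lower in Scr-treated PDGFR-β+ cells numbered 7 to 14, and higher 2 to 5, with a library left out (22.7% to 24% and 21.9% to 25.8% of all genes tested). Other causes were not tested.

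Same-numbered libraries deviated together with correlations of 0.073, -0.016 and 0.0043 in PDGFR-β+ cells and 0.107 in the numbered SMC libraries, so the numbers were not taken to pair samples. With only 2 numbered SMC libraries per group, every correlation there is 0.107 or -0.107. These amount to a single value and cannot show pairing library by library. In PDGFR-β+ cells not every library correlated best with its own number. With the replicate block 17 members were lower and 0 higher in PDGFR-β+ cells (15.7% and 25.5% of all genes tested). In the numbered SMC libraries 8 were then lower and 1 higher (9.85% and 10.9%), without Acat2, Mvd and Stard4 (adjusted p of Stard4 = 0.0575, limma).

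In some alternative the sign turned for 10 members in SMCs (among them Fdps, Sqle and Fasn), 3 in PDGFR-β+ cells, 7 for the difference and 6 for Scr levels, of which 0 had passed with all libraries. Of the regulators these were Srebf1 and Srebf2. With a library left out, values in SMCs ran from -0.20 to 0.042 for Srebf1 and from -0.14 to 0.016 for Srebf2, and differences between cell types from -0.23 to 0.056 for Srebf1 and from -0.053 to 0.099 for Srebf2. In SMCs Srebf1 was 0.042 without Scr replicate 2, 0.029 without Scr replicate 3 and 0.018 without the unnumbered siKlf4 library, and Srebf2 0.016 without Scr replicate 2. In PDGFR-β+ cells Srebf1 was -0.061 with median-ratio scaling, -0.052 with quantile normalization, -0.098 without Scr replicate 3 and -0.043 without siKlf4 replicate 1. The difference of Srebf2 was -0.034 without PDGFR-β+ Scr replicate 1, -0.053 without the unnumbered SMC Scr library and -0.079 with the numbered SMC libraries only, with or without the replicate block. The difference of Srebf1 was 0.056 without PDGFR-β+ Scr replicate 3, 0.0018 without PDGFR-β+ siKlf4 replicate 1 and 0.0042 without SMC Scr replicate 2.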
